A study of Mus musculus with 16 samples.

Results

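The response of SR9009-treated macrophages to lipopolysaccharide (LPS) was followed in 8 of the 16 RNA-sequencing libraries of a study on clock control of fibrinolytic activity in innate immune cells. The 8 libraries were taken by their column labels and by no measured value. All came from bone marrow-derived macrophages of 4 male wild-type C57BL6 mice, grown in L929 cell supernatant. In 4 libraries (SR9009 and LPS), cells were given 10 µM SR9009 for 16 hours and then 100 ng/mL LPS for 6 hours. In the other 4 (SR9009), cells of the same mice were given SR9009 alone. The remaining 8 libraries, from the same mice, were of cells given LPS alone and of cells given the vehicle DMSO. They entered the model for the spread between libraries and a comparison of the LPS response with and without SR9009. Whether the LPS cells also had overnight DMSO is not stated in their labels. Each mouse gave 1 library to each group, so the libraries compared here form 4 pairs, and the mice were of 1 sex and strain.

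LPS, a cell wall component of Gram-negative bacteria, is sensed by CD14, MD-2 and Toll-like receptor 4 (TLR4). The adaptor MyD88 leads from the receptor to NF-κB and AP-1, which switch on cytokines and chemokines. The adaptor TRIF leads to IRF3 and interferon β, and interferon β then acts through STAT factors on a large group of antiviral genes. SR9009 is a synthetic agonist of REV-ERBα and REV-ERBβ, the clock repressors encoded by Nr1d1 and Nr1d2, and both groups compared here had received it. The comparison thus asks which genes LPS raised or lowered in macrophages already exposed to the agonist.

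Total counts ran from 18616960 to 19924361 in the SR9009 and LPS libraries and from 12616442 to 23830506 in the SR9009 libraries. The SR9009 library of mouse 1 stood apart from the other 15 before any comparison was made. It had the lowest total, the fewest genes with a count (13298, against 18179 to 18827 in the other SR9009 libraries) and few counts in GC-rich transcripts. Transcripts above 55% GC held 5.34% of its counts, against 22.5% to 23.4% in the other SR9009 libraries and 16.8% to 20.4% in the SR9009 and LPS libraries. Within mouse 1, the median log2 difference between SR9009 and LPS and SR9009 was 1.96 for transcripts above 55% GC and -0.90 for those under 45% GC. In the other mice these medians lay between -0.36 and -0.10 and between -0.01 and 0.12. Results are therefore given with all 8 libraries, and again without this library wherever that changes the call of a named gene or moves a count of calls by more than 1.5 times. Levels are given as CPM, counts scaled to library size with TMM factors, 4 values in a row are in the order of mice 1 to 4, and errors are SD over 4 libraries unless named SE.

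**Figure D1:**
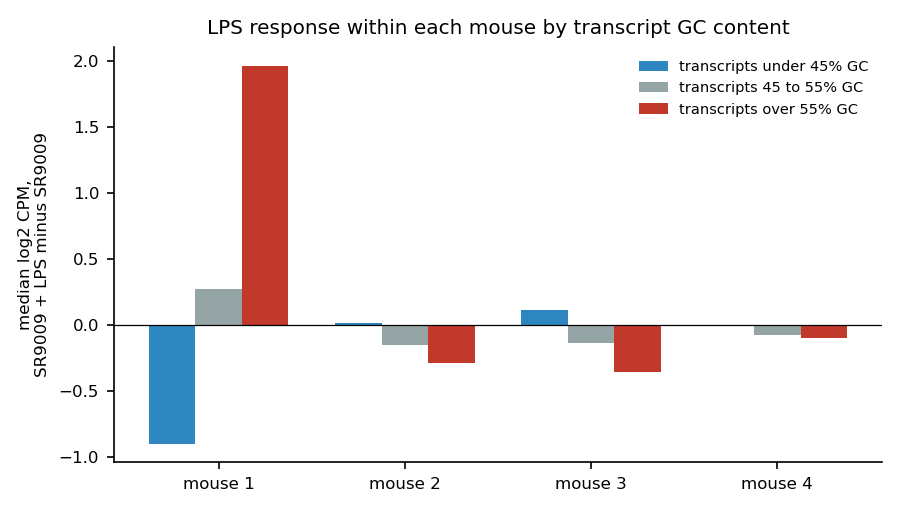
Median log2 CPM difference between SR9009 and LPS and SR9009 within each mouse (y axis), for tested transcripts under 45%, of 45 to 55% and over 55% GC (bars). In mouse 1 the medians run from -0.90 to 1.96, while in mice 2 to 4 all lie between -0.36 and 0.12.

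LPS changed the level of 4070 of 13438 tested genes (30.3%) in SR9009-treated macrophages, at an adjusted p under 0.05. Of these, 1944 genes were higher (14.5%) and 2126 were lower (15.8%) in SR9009 and LPS than in SR9009. The largest changes were inductions: 195 called genes were higher by 5 or more on the log2 scale, whereas 27 were lower by as much. The test was edgeR's quasi-likelihood test with Benjamini-Hochberg adjustment over all tested genes. Without the SR9009 library of mouse 1, 3103 of 13645 tested genes were called higher (22.7%) and 2832 lower (20.8%). Without mouse 2, 3 or 4 altogether, 1307 to 1360 genes were called higher and 1123 to 1181 lower. The calls made with all libraries were mostly shared with those without the SR9009 library of mouse 1, since 1934 of the 1944 higher genes and 1762 of the 2126 lower genes were called in the same direction. The balance of calls by GC content was not shared. Of 2759 genes above 55% GC, 316 were called higher and 229 lower with all libraries, against 434 and 750 without it. Of 3575 genes under 45% GC, 510 were called higher and 720 lower, against 1127 and 507. The 4 libraries of each group did not overlap for 1864 genes that were higher in SR9009 and LPS (13.9%) and for 1799 that were lower (13.4%). The median log2 fold change of all tested genes was -0.12, and -0.04 without that library.

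The 10 largest inductions were of Nos2, Cxcl11, Cxcl9, Edn1, Cxcl10, Ptgs2, Heatr9, Il12b, Lipg and Il6, with genes of effector enzymes, chemokines and cytokines among them. Nos2 (chromosome 11, 78811613 to 78851080, GRCm39), the inducible nitric oxide synthase, had 999, 2133, 1175 and 1319 CPM in SR9009 and LPS and 0, 0.256, 0.121 and 0.406 CPM in SR9009. Its log2 fold change was 12.61 ± 0.83 (SE, adjusted p = 9.1e-08). Cxcl10 (chromosome 5, 92494497 to 92496748, GRCm39), a CXCR3 ligand induced by interferon, had 10337, 8941, 2142 and 2180.1 CPM in SR9009 and LPS and 7.46, 9.65, 2.01 and 2.3 CPM in SR9009, a log2 fold change of 10.11 ± 0.95 (SE, adjusted p = 1.2e-06). Its 4 induced libraries all lay above 2000 CPM, but mice 1 and 2 were far above mice 3 and 4.

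Cxcl11, another CXCR3 ligand, had 50.6, 75.1, 9.29 and 9.36 CPM in SR9009 and LPS and no count in any SR9009 library, so that it was at least 1150-fold higher against a floor of 3 counts over the SR9009 group. Cxcl9, the remaining ligand of that receptor, had 82.7, 106, 101 and 82.2 CPM in SR9009 and LPS and 0, 0, 0 and 0.135 CPM in SR9009. Unlike Cxcl10 and Cxcl11, Cxcl9 differed little among the 4 induced libraries. Il12b, the p40 subunit of interleukin 12, had 24.9, 26.6, 104 and 116 CPM in SR9009 and LPS and 0, 0.329, 0.0403 and 0 CPM in SR9009 (log2 9.29 ± 1.04, SE, adjusted p = 7.3e-06). Il6 had 3.35, 6.77, 34.2 and 47.7 CPM in SR9009 and LPS and 0, 0.11, 0 and 0 CPM in SR9009. With 3 counts in all SR9009 libraries together, its ratio of summed counts was 739, with a 95% counting interval of 252 to 3585. Both cytokines were lowest in mouse 1 and highest in mouse 4 after LPS.

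The 10 largest reductions were of Cd28, Rasgrp3, Cxcr4, Tmem154, Eps8, Slc26a11, Rnf150, Hpgd, Tcp11l2 and Mex3b. Cd28 (chromosome 1, 60755959 to 60812518, GRCm39), best known as a costimulatory receptor of T cells, fell to 0, 0.353, 0.285 and 0 CPM in SR9009 and LPS, against 42.2, 31, 44.1 and 32.6 CPM in SR9009. Its log2 fold change was -7.81 ± 0.68 (SE, adjusted p = 6.5e-07). Cxcr4 (chromosome 1, 128515936 to 128520030, GRCm39), the receptor for the homing chemokine CXCL12, fell to 4.11, 3.36, 2.28 and 3.08 CPM, against 374, 282, 327 and 227 CPM in SR9009 (log2 -6.56 ± 0.26, SE, adjusted p = 4.8e-10). Its 8 values fell into 2 tight and distant groups, and Cxcr4 had the smallest p of the 10. Rasgrp3, an exchange factor for Ras, had 0.294, 0.353, 0.057 and 0.118 CPM in SR9009 and LPS and 41.7, 16.4, 30.9 and 27.4 CPM in SR9009. Hpgd, which breaks down prostaglandin E2, had 3.35, 3, 1.88 and 1.13 CPM in SR9009 and LPS and 191, 53.1, 38 and 28.3 CPM in SR9009. The SR9009 value of mouse 1 was far above the other 3, and without that library the log2 fold change of Hpgd was -4.02 ± 0.34 (SE), against -5.05 ± 0.58 with it.

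**Figure D2:**
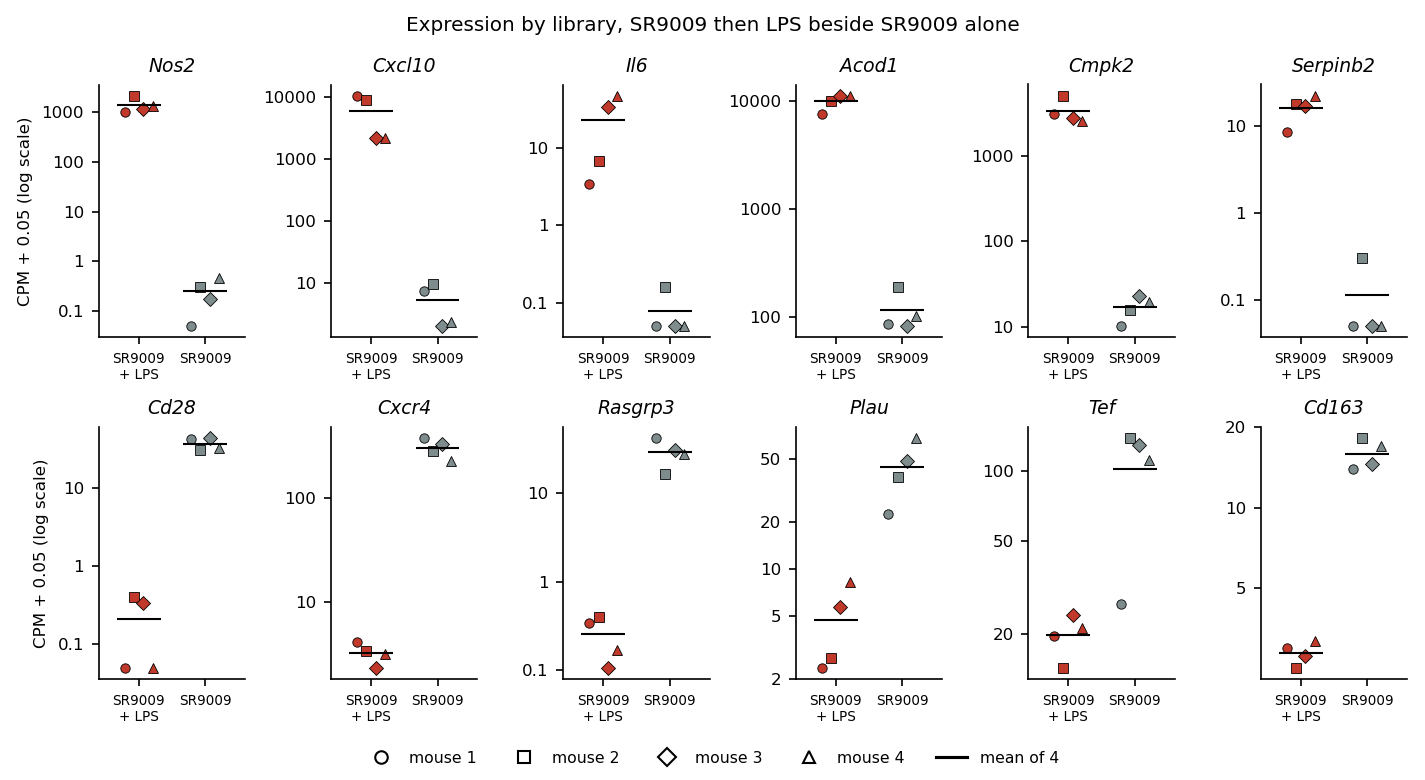
CPM plus 0.05 on a log axis for 12 genes, 1 symbol per library and 1 symbol shape per mouse, with the mean of 4 libraries as a line. The 6 genes of the upper row are higher in every SR9009 and LPS library than in any SR9009 library, and the 6 of the lower row are lower in every one.

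Promoter sequences of 4 responding genes are shown as examples and not as typical of their groups. They are a chemokine with both kinds of motif, a cytokine, an interferon-stimulated gene and a receptor gene that LPS lowered. The windows run from 250 bases before to 50 bases after the annotated start, in the direction of the gene, and come from RefSeq (GRCm38.p6). Capitals mark matches, on either strand, to a κB motif (GGGA and TTCC set 2 bases apart), an interferon response motif (GAAA and GAAA set 2 bases apart) or an AP-1 motif (TGANTCA, N for any base).
Cxcl10, chr5:92348840-92349139, minus strand: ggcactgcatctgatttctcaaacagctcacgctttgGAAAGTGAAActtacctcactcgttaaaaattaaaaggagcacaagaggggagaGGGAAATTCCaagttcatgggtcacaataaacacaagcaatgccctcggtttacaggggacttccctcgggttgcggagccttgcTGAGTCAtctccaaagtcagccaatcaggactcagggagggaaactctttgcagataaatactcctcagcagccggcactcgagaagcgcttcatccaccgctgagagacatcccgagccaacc
Il6, chr5:30012864-30013163, plus strand: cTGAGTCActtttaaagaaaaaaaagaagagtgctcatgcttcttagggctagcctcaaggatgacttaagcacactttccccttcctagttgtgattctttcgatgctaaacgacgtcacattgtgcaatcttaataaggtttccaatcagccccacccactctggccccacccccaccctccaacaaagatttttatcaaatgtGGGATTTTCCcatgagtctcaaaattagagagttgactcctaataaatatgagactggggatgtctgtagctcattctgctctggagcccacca
Ifit3, chr19:34583279-34583578, plus strand: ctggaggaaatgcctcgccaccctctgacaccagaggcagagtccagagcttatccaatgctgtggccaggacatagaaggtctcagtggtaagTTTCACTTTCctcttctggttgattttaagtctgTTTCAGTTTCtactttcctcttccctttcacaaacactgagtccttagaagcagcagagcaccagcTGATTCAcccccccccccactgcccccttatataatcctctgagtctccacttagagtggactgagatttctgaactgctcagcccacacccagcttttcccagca
Cxcr4, chr1:128592250-128592549, minus strand: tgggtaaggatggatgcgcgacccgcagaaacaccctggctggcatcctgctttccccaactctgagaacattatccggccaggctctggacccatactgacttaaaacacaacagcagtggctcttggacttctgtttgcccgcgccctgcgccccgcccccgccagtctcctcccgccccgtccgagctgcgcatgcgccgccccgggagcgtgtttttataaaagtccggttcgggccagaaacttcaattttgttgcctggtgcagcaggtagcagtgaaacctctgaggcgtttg
The Cxcl10 window holds the κB letters GGGAAATTCC from 159 bases before the start, the interferon response letters GAAAGTGAAA from 213 and an AP-1 match from 74 bases before it. The Il6 window holds GGGATTTTCC from 44 bases before the start and an AP-1 match at 249 bases. Ifit3 has interferon response matches from 156 and 122 bases before the start and an AP-1 match at 56, while the Cxcr4 window has none of the motifs. Among the other most induced genes with a window, Cxcl9, Edn1, Ptgs2, Heatr9 and Il12b hold no κB match, and Ptgs2 and Il12b hold none of the motifs. Among the other most lowered genes, Tmem154 holds an AP-1 match, and Rasgrp3, Hpgd, Tcp11l2 and Mex3b hold none of the motifs. Some genes have more than 1 window, and a match in any was counted. Of 9296 tested protein-coding genes with a window, 4.18% hold the interferon response motif, against 14.7% of the 510 of them that were higher by 2 or more on the log2 scale, and called both with all libraries and with that of SR9009 mouse 1 left out, and 1.22% of the 245 that were lower by as much. The κB motif is in 1.79% of all genes, in 3.92% of those 510 genes and in 0.408% of the 245. The AP-1 motif is in 6.24% of all, in 12.9% of the higher and in 10.6% of the lower genes. A REV-ERB and ROR response motif (TAGGTCA) is in 2.21% of all, in 2.35% of the higher and in 3.27% of the lower genes. These are matches of letters and not measured binding.

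Gene lists were next counted by role. A listed gene could pass the filter on low counts through its LPS-treated libraries alone, so counts among tested members describe the lists and are set beside 14.5% higher and 15.8% lower over all tested genes. Without the SR9009 library of mouse 1 the shares over all tested genes were 22.7% and 20.8%. With a term for the mouse they were 16.4% and 17.6%. The receptor complex comes first. Of 21 tested genes of the TLR4 complex and its adaptors, 8 rose and 1 fell, with a median log2 fold change of 0.50. The gene that fell was Tlr4 itself, with 31.5, 30.6, 60.1 and 60.6 CPM in SR9009 and LPS and 165, 78.3, 143 and 139.9 CPM in SR9009 (log2 -1.52 ± 0.30, SE, adjusted p = 0.001). Cd14, which hands LPS to TLR4, had 2643, 2702, 2221 and 2662 CPM in SR9009 and LPS and 91, 724, 304 and 281 CPM in SR9009 (log2 2.87 ± 0.42, SE, adjusted p = 9.7e-05). Irak2, a kinase-like partner of MyD88, averaged 282 ± 72.2 CPM in SR9009 and LPS and 40.7 ± 13 CPM in SR9009 (log2 2.79). Myd88 itself rose by 2.18 and Ikbke, a kinase of the TRIF branch, by 2.38 on the log2 scale. Without the SR9009 library of mouse 1 the count was 12 rose and 4 fell of 21, against 22.7% and 20.8% of all genes, and with a term for the mouse 9 rose and 3 fell.

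NF-κB genes rose together with their own inhibitors. Of 11 tested subunits and inhibitors, 9 rose and none fell, with a median of 2.07. Nfkbia, which encodes the inhibitor IκBα, had 723, 1032, 1005 and 1123 CPM in SR9009 and LPS and 35, 77.5, 76.3 and 67.7 CPM in SR9009 (log2 3.92 ± 0.27, SE, adjusted p = 1.2e-07). Nfkbiz, a nuclear IκB protein needed for Il6 induction in mouse macrophages, averaged 559 ± 107 CPM in SR9009 and LPS and 36.1 ± 15.6 CPM in SR9009. The precursors of p50 and p52, Nfkb1 and Nfkb2, rose by 1.84 and 2.29 on the log2 scale. Among 30 tested brakes on TLR and cytokine signalling, 20 rose and 3 fell, with a median of 1.81, and 5 fell without the SR9009 library of mouse 1. Tnfaip3, which encodes the ubiquitin-editing enzyme A20, had 259, 346, 603 and 609.8 CPM in SR9009 and LPS and 37.7, 43.3, 26.9 and 27.7 CPM in SR9009 (log2 3.74 ± 0.33, SE, adjusted p = 6.2e-07). Dusp2 and Dusp16, phosphatases of MAP kinases, rose by 7.80 and 2.50, and Tnip3, a partner of A20, by 3.00. Of 20 tested genes of a list of AP-1, EGR, KLF and other factors, 11 rose and none fell. With the SR9009 library of mouse 1 left out, 12 rose and 1 fell. Hivep3 (log2 3.03), which is not of the named families, Batf2 (4.51), Klf7 (1.79) and Batf (3.93) were in front by p.

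Of 16 tested secreted cytokines, 13 rose and none fell, with a median of 4.48. Tnf had 343, 533, 1006 and 1273 CPM in SR9009 and LPS and 0, 6.5, 9.7 and 11.1 CPM in SR9009. Its log2 fold change was 6.83 ± 0.88 (SE, adjusted p = 2.6e-05), and 6.49 ± 0.48 without the SR9009 library of mouse 1, in which it had no count. Il10, the anti-inflammatory cytokine, averaged 16.6 ± 6.27 CPM in SR9009 and LPS and 0.567 ± 0.429 CPM in SR9009 (log2 4.78). Il27 had 218, 328, 67.6 and 86.4 CPM in SR9009 and LPS and 0, 2.34, 0.805 and 1.35 CPM in SR9009, and Tnfsf15, a TNF family ligand, rose by 4.19. After LPS, Il27 was higher in mice 1 and 2 than in mice 3 and 4, and Tnf was the other way round. In the interleukin 1 family, 8 of 10 tested members rose and 1 fell, with a median of 2.99. The member that fell was Il1rl1, the receptor of interleukin 33, with no count in any SR9009 and LPS library and 0, 0.438, 0.0805 and 0.169 CPM in SR9009 (adjusted p = 0.03). At these low counts the call was lost without mouse 2, 3 or 4 (adjusted p of 0.161, 0.0756 and 0.122), without the SR9009 library of mouse 2 (0.0795) and without any 1 of the SR9009 and LPS libraries (0.0547 to 0.0605). Il1b had 28.3, 71.3, 435 and 522 CPM in SR9009 and LPS and 8.36, 13.7, 0.0403 and 0.135 CPM in SR9009 (log2 5.58 ± 1.38, SE, adjusted p = 0.006). The groups did not overlap, but the induced values of mice 3 and 4 were far above those of mice 1 and 2. With only the 2 groups in a model with a term for the mouse, the call of Il1b was lost (adjusted p = 0.19). Il1rn, which encodes the receptor antagonist, had 167, 341, 278 and 269.5 CPM in SR9009 and LPS and 7.66, 6.69, 4.31 and 4.03 CPM in SR9009 (log2 5.54 ± 0.37, SE, adjusted p = 9.1e-08). Il18bp, the binding protein that neutralises interleukin 18, and Il18 rose by 2.02 and 2.29. For Il18 this became 3.11 with the SR9009 library of mouse 1 left out.

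Of 18 tested chemokine ligands, 17 rose and none fell, with a median of 6.64. Ccl5 had 2387, 2739.7, 2356 and 2538 CPM in SR9009 and LPS and 2.37, 14, 5.28 and 3.69 CPM in SR9009 (log2 8.62 ± 0.67, SE, adjusted p = 2.6e-07). Its 4 induced libraries differed less among themselves than those of Cxcl10. Ccl3 averaged 620.4 ± 299 CPM in SR9009 and LPS and 17.3 ± 7.66 CPM in SR9009, and Ccl12 averaged 47.4 ± 18.9 CPM and 0.227 ± 0.16 CPM. Per transcript length, Cxcl10 and Ccl5 ranked 8th and 9th of protein-coding genes in SR9009 and LPS by the authors' FPKM. Of 9 tested chemokine receptors, 2 rose and 2 fell, and with a term for the mouse 4 rose and 3 fell. Ccrl2, which presents chemerin, rose by 3.57, while Cxcr4 (above) and Cxcr3, the receptor of CXCL9, CXCL10 and CXCL11, fell. Cxcr3 had 0.176, 0.118, 0 and 0.0592 CPM in SR9009 and LPS and 0.836, 5.22, 5.28 and 5.52 CPM in SR9009.

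Every tested antiviral interferon-stimulated gene rose, 36 of 36, with a median of 4.05, and all 36 were also called without the SR9009 library of mouse 1. Cmpk2, a mitochondrial nucleotide kinase, had 3059.8, 4985, 2731 and 2546 CPM in SR9009 and LPS and 10.3, 15.8, 23.2 and 19.4 CPM in SR9009. It had a log2 fold change of 7.60 ± 0.48 (SE, adjusted p = 5.5e-08). Usp18, which removes ISG15 and damps interferon receptor signalling, averaged 714 ± 274 CPM in SR9009 and LPS and 15.2 ± 5.65 CPM in SR9009. The sensor of Z-form nucleic acid Zbp1 rose by 4.95 and Xaf1 by 3.87. Of 15 tested guanylate-binding proteins and immunity-related GTPases, which attack pathogen vacuoles, 14 rose and none fell, with a median of 5.80. Gbp2 had 1109, 1528, 1176 and 1063 CPM in SR9009 and LPS and 16.2, 11.3, 6.56 and 6.03 CPM in SR9009 (log2 6.93 ± 0.50, SE, adjusted p = 1.5e-07). Gbp3 and Gbp7 rose by 6.38 and 5.80. Tgtp2 rose by 5.63, but it has a near-identical neighbour, Tgtp1, and counting could split their reads. Among interferon β, IRF and STAT genes, 12 of 17 tested rose and 1 fell. Stat2, which relays interferon signals to the nucleus, rose by 3.68 and Irf7, the amplifier of the interferon loop, by 4.48. The member that fell was Irf4, with 0.118, 0.118, 0 and 0.0592 CPM in SR9009 and LPS and 4.67, 4.02, 1.53 and 2.07 CPM in SR9009. Ifnb1 was under the filter on low counts, with 15, 33, 2 and 8 counts in SR9009 and LPS and 0 in each SR9009 library.

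**Figure D3:**
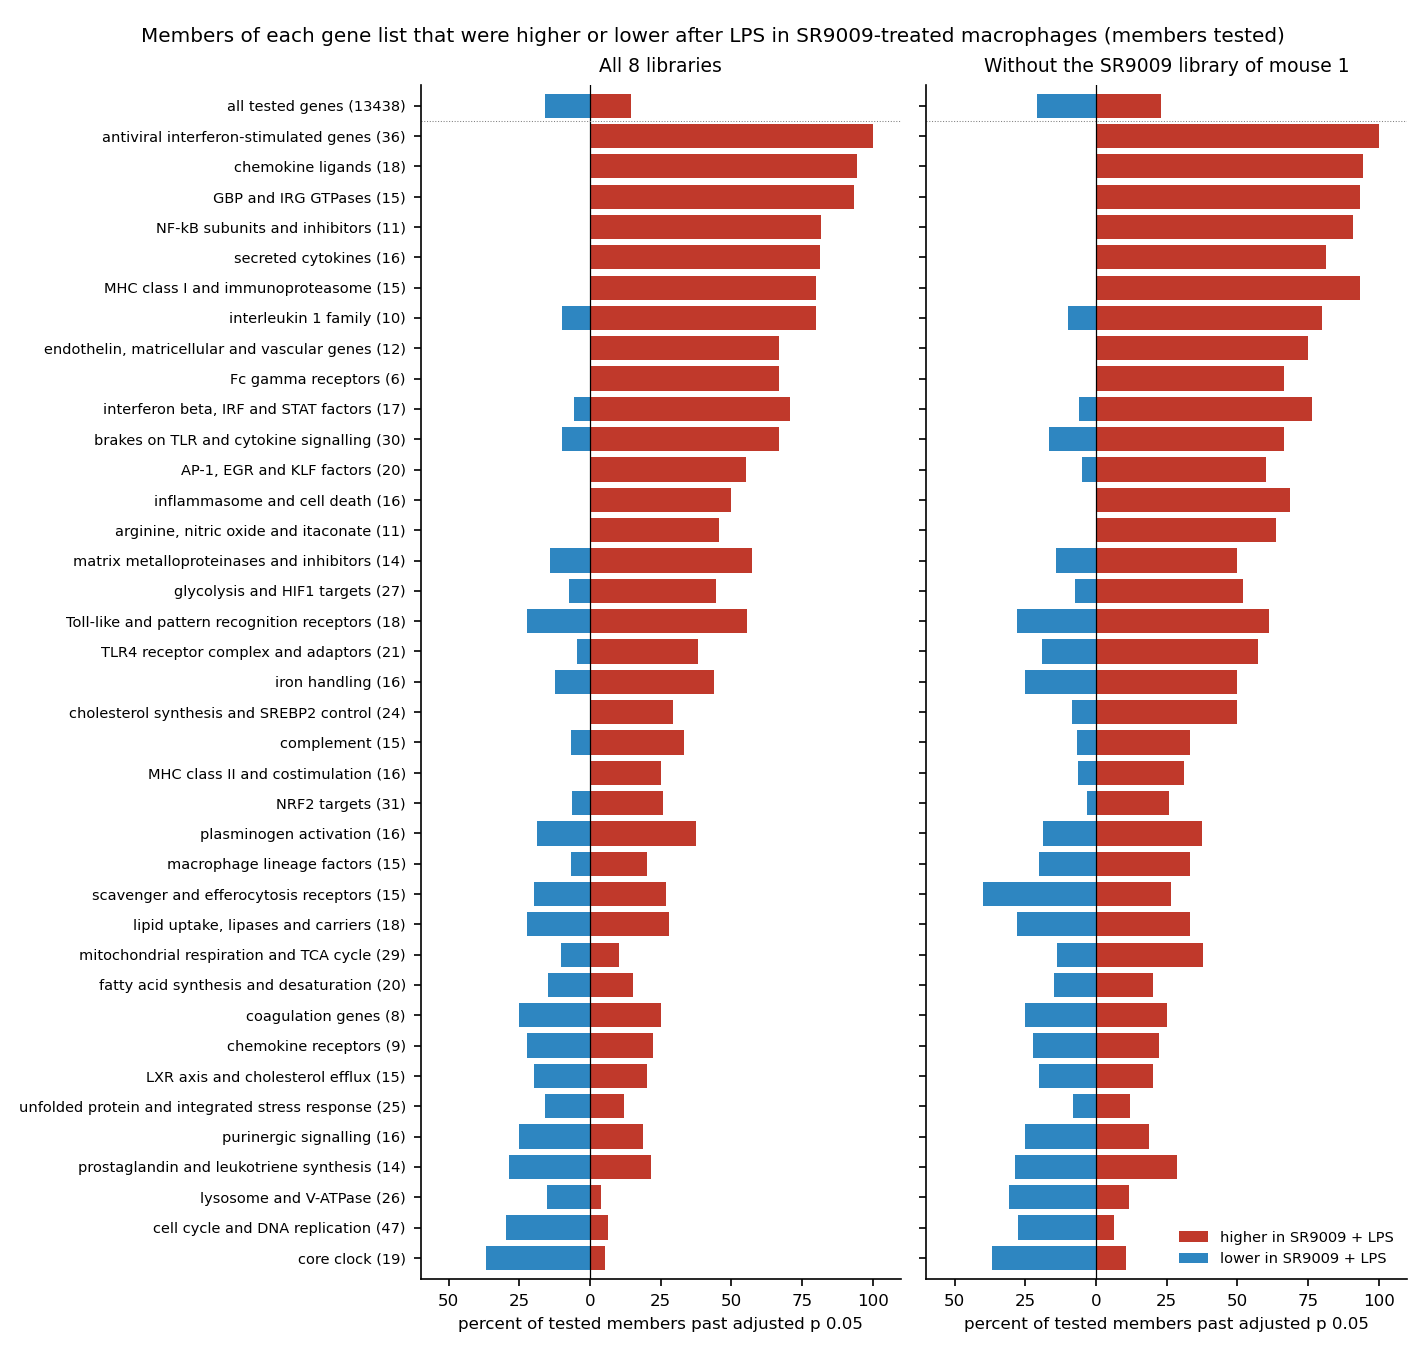
Share of the tested members of each gene list that were called higher (right of 0) or lower (left of 0) in SR9009 and LPS than in SR9009, with all 8 libraries (left) and with the SR9009 library of mouse 1 left out (right). The top bar gives all tested genes (14.5% higher and 15.8% lower at left), and antiviral interferon-stimulated genes reach 36 of 36 in both panels.

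Nitric oxide and itaconate are made by enzymes that activated macrophages express. Of 11 tested genes of arginine, nitric oxide and itaconate metabolism, 5 rose and none fell, and 7 rose without the SR9009 library of mouse 1. Acod1, which makes itaconate from cis-aconitate, had 7554, 10018, 11143 and 11202 CPM in SR9009 and LPS and 85.4, 189.9, 82.1 and 102 CPM in SR9009 (log2 6.44 ± 0.62, SE, adjusted p = 1.6e-06). By the authors' FPKM it ranked 3rd of protein-coding genes in SR9009 and LPS and 850th in SR9009. Slc7a2, an arginine carrier, rose by 5.17, and Gch1, which makes the cofactor of nitric oxide synthase, by 2.90. Of 14 tested prostaglandin and leukotriene genes, 3 rose and 4 fell. Among those that rose, Ptgs2 (cyclooxygenase 2) had 37.1, 84.3, 975 and 1085 CPM in SR9009 and LPS and 0.836, 0.95, 0.201 and 0.847 CPM in SR9009, and Ptges, which makes prostaglandin E2, had 163, 171, 655 and 668 CPM and 3.41, 9.24, 3.26 and 3.93 CPM. Both were higher in mice 3 and 4 than in mice 1 and 2 after LPS. Hpgds, the prostaglandin D synthase, fell to 46.1 ± 9.58 CPM, against 143 ± 47.4 CPM in SR9009, and Hpgd (above) fell as well.

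The series addresses fibrinolysis, in which urokinase (Plau) and tissue plasminogen activator (Plat) turn plasminogen into plasmin and serpins stop them. In SR9009-treated cells LPS raised the inhibitor gene Serpinb2 and lowered urokinase. Serpinb2 (PAI-2, which inhibits urokinase) had 8.64, 17.8, 16.9 and 22.3 CPM in SR9009 and LPS and 0, 0.256, 0 and 0 CPM in SR9009 (log2 7.72 ± 1.12, SE, adjusted p = 7.9e-05). Plau (chromosome 14, 20886728 to 20893453, GRCm39) had 2.29, 2.65, 5.64 and 8.24 CPM in SR9009 and LPS and 22.2, 38.4, 48.7 and 68.1 CPM in SR9009, a log2 fold change of -3.24 ± 0.45 (SE, adjusted p = 5.4e-05). In every mouse Plau was lower and Serpinb2 was higher after LPS. Plat rose, but to a low level, with 1.82, 2.77, 1.48 and 1.24 CPM in SR9009 and LPS and 0, 0, 0.201 and 0 CPM in SR9009 (log2 4.98).

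Across the 16 tested genes of the broad list of plasminogen activation, 6 rose and 3 fell, with a median of 0.72. Besides the genes above, Serpina3g (log2 8.70), the protease nexin Serpine2 (2.69) and the plasminogen-binding Anxa2 (1.01) rose. Serpina3g had 1 count over the SR9009 libraries, and the ratio of its summed counts was 659 with a 95% counting interval of 118 to 26066. Serpinb6a and Serpinb8 fell by 0.97 and 0.98. Members such as Serpina3g, Serpinb6a, Serpinb9 and Thbd are not core genes of plasminogen activation. The counts and median therefore describe the list and not fibrinolysis. The call of Serpine2 was lost without mouse 4 (adjusted p = 0.13). That of Anxa2 was lost in a model of the 2 groups with a term for the mouse (0.053). The call of Serpinb8 was lost without mouse 2, 3 or 4 (0.051, 0.11 and 0.070) and without the SR9009 and LPS library of mouse 3 or mouse 4 (0.052 each). The urokinase receptor Plaur did not pass, with 7.05, 12.9, 43.2 and 65.1 CPM in SR9009 and LPS and 8.78, 24, 18.7 and 26.6 CPM in SR9009 (log2 0.71 ± 0.56, SE, adjusted p = 0.37). It was lower after LPS in mice 1 and 2 and higher in mice 3 and 4. Serpinb9 (log2 0.82), Thbd (-0.79), Plgrkt (-0.57, and 0.21 without the SR9009 library of mouse 1), Eno1 (0.73), S100a10 (0.25) and Lrp1 (-0.31) did not pass either. Serpinb9 passed without the SR9009 and LPS library of mouse 2 (adjusted p = 0.042), and Thbd without mouse 1 (0.039). Eno1 passed with a term for the mouse in the fit that left out the SR9009 library of mouse 1 (0.015) or removed the GC trend (0.0032). Of 8 tested coagulation genes, 2 rose and 2 fell. The protein C receptor Procr averaged 106 ± 80.5 CPM in SR9009 and LPS and 6.92 ± 3.91 CPM in SR9009 (log2 3.93), and factor X (F10) rose by 2.74.

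Matrix and vessel-acting genes rose widely. Of 14 tested metalloproteinases and inhibitors, 8 rose and 2 fell, with a median of 1.64. Mmp13, a collagenase, had 97.9, 287, 298 and 287 CPM in SR9009 and LPS and 11.4, 5.19, 6.24 and 8.87 CPM in SR9009 (log2 4.94 ± 0.46, SE, adjusted p = 1.0e-06). Adamts4, an aggrecanase, had 125, 113, 22.7 and 24.1 CPM in SR9009 and LPS and 0, 0.183, 0.121 and 0.169 CPM in SR9009. Mmp14 and Mmp25, anchored at the membrane, rose by 2.50 and 5.07. Of 12 tested endothelin, matricellular and vascular genes, 8 rose and none fell. Edn1, the precursor of the vasoconstrictor endothelin 1, had 1.29, 10.5, 59.1 and 57.4 CPM in SR9009 and LPS and 0, 0, 0.0403 and 0 CPM in SR9009. With 1 count over the SR9009 libraries, the ratio of its summed counts was 3098, with a 95% counting interval of 555 to 122401. The proteoglycan Vcan averaged 105 ± 36.8 CPM in SR9009 and LPS and 2.11 ± 1.45 CPM in SR9009 (log2 5.67, and 6.28 without the SR9009 library of mouse 1), Tnc rose by 8.05 and the adhesion receptor Icam1 by 3.53.

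Core clock genes leaned downwards after LPS, and of the repressors targeted by SR9009 the REV-ERBβ gene passed the test. Of 19 tested, 1 rose (2 without the SR9009 library of mouse 1) and 7 fell, with a median of -0.60, beside 14.5% higher and 15.8% lower over all genes. Harvest times of the groups are not given here, and whether sampling time contributed to the differences in clock genes was not tested. Nr1d2 (REV-ERBβ) fell to 41.6, 28.6, 21.4 and 20.9 CPM in SR9009 and LPS, against 175, 61.9, 62.1 and 50.3 CPM in SR9009 (log2 -1.63 ± 0.34, SE, adjusted p = 0.0018). Its SR9009 value in mouse 1 was well above the other 3, and without that library the log2 fold change was -0.98 ± 0.20 (SE, adjusted p = 0.0012). Nr1d1 (REV-ERBα) had 4.47, 4.06, 4.9 and 6.99 CPM in SR9009 and LPS and 8.5, 11.1, 6.08 and 5.18 CPM in SR9009 (log2 -0.60 ± 0.45, SE, adjusted p = 0.34), and the groups overlapped. The repressor genes were lower in SR9009 and LPS in 4 of 4 mice for Nr1d2, but Nr1d1 was higher in mouse 4. Arntl (BMAL1), the activator that REV-ERB proteins repress, had 25.2, 24, 11.3 and 12.7 CPM in SR9009 and LPS and 36.2, 15.1, 12.8 and 13.3 CPM in SR9009 (log2 -0.08 ± 0.39, SE, adjusted p = 0.91).

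The period gene Per2 had 5.76, 3.77, 5.41 and 3.5 CPM in SR9009 and LPS and 19.5, 17.3, 11.9 and 12.6 CPM in SR9009 (log2 -1.73 ± 0.27, SE, adjusted p = 1.6e-04). Tef, an output factor of the clock, had 19.6, 14.3, 24.2 and 21.2 CPM in SR9009 and LPS and 26.8, 139, 129 and 112 CPM in SR9009 (log2 -2.36). Per3 fell by 1.73, Npas2 by 3.06, Rora, the activating rival of REV-ERB, by 1.80 (-1.16 as a log2 fold change without the SR9009 library of mouse 1) and Csnk1e, a kinase of the period proteins, by 1.07. The calls of Per3 and Npas2 were lost without mouse 2, 3 or 4 (adjusted p 0.051 to 0.099 for Per3 and 0.13 to 0.14 for Npas2). That of Npas2 was also lost without the SR9009 and LPS library of mouse 2, 3 or 4 (0.054 to 0.059). Nfil3, a repressor that opposes Dbp and Tef, was the member that rose, with 80.1, 71.1, 36.3 and 31.3 CPM in SR9009 and LPS and 9.34, 30.8, 14.7 and 15 CPM in SR9009 (log2 1.65). Dbp (log2 -1.47, adjusted p = 0.12) and Bhlhe40 (-0.75, 0.068) passed only with a term for the mouse (0.03 and 0.018) or other alternatives. Dbp also passed without mouse 1 (0.017) and without its SR9009 and LPS library (0.039). Cry1 passed without the SR9009 library of mouse 1, at 0.68 (adjusted p = 0.017), against 0.45 with it (0.17). Clock did not pass (log2 -0.53, and 0.10 without that library), except with the GC trend removed (adjusted p = 0.046, and 0.038 with a term for the mouse as well). Csnk1d (log2 0.33), Ciart (0.93), Bhlhe41 (-0.30), Cry2 (-0.22) and Per1 (0.25) did not pass.

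Of 27 tested glycolysis and HIF1 target genes, 12 rose and 2 fell, with a median of 1.06. Pfkfb3, which makes the main activator of phosphofructokinase, averaged 649 ± 179 CPM in SR9009 and LPS and 57.3 ± 7.39 CPM in SR9009, and Hk2 and Pfkp rose by 1.96 and 1.82. Of 29 tested genes of respiration and the citrate cycle, 3 rose and 3 fell, at or below the background, and 11 rose and 4 fell without the SR9009 library of mouse 1, while 6 rose with a term for the mouse. Idh1, which makes NADPH in the cytosol, fell to 119.5 ± 25.7 CPM, against 413 ± 64.6 CPM in SR9009, and Acadm fell by 1.14, while Cycs (cytochrome c) rose by 1.49. Of 31 tested NRF2 targets, 8 rose and 2 fell, and only 1 fell either with the SR9009 library of mouse 1 left out or with a term for the mouse. Slc7a11, the cystine carrier, had 88.2, 69.3, 749 and 801 CPM in SR9009 and LPS and 8.36, 12.7, 18.6 and 22 CPM in SR9009, and Prdx1 and Gsr rose by 1.52 and 1.90. Hmox1, which breaks down heme, had 343, 455, 3401 and 3852 CPM in SR9009 and LPS and 55.8, 273, 524 and 653 CPM in SR9009 (log2 2.42 ± 0.75, SE, adjusted p = 0.023). The call of Hmox1 was lost without mouse 2, 3 or 4 (adjusted p 0.066 to 0.12), without the SR9009 library of mouse 2 (0.058) and without the SR9009 and LPS library of mouse 3 or 4 (0.064 and 0.077). Nqo1, another NRF2 target, had 13.3 ± 3.94 CPM in SR9009 and LPS and 14.1 ± 3.86 CPM in SR9009 (log2 -0.08, adjusted p = 0.85).

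Of 24 tested genes of cholesterol synthesis and its control, 7 rose and none fell, and 12 rose and 2 fell without the SR9009 library of mouse 1. Fatty acid genes gave 3 higher and 3 lower of 20 tested: Dgat2, the last step of triglyceride synthesis, rose by 3.97, while Lpin1 and the desaturase Fads1 fell by 3.76 and 1.74. Of 15 tested genes of the LXR axis, 3 rose and 3 fell. Ch25h, which makes 25-hydroxycholesterol, averaged 58.2 ± 31.4 CPM in SR9009 and LPS and 3.32 ± 2.13 CPM in SR9009, and Abca9 fell by 1.60. Of 18 tested genes of lipid uptake, lipases and carriers, 5 rose and 4 fell. The endothelial lipase gene Lipg had 5.11, 18.8, 34 and 38.4 CPM in SR9009 and LPS and 0.209, 0, 0 and 0 CPM in SR9009, 3 counts in all, so the ratio of its summed counts was 773 with a 95% counting interval of 264 to 3753. All 3 counts were in the SR9009 library of mouse 1. Angptl4, an inhibitor of lipoprotein lipase, had no count in SR9009 and LPS and 1.11, 1.02, 1.73 and 1.86 CPM in SR9009, at least 33.7-fold lower against the floor of 3 counts. Of 16 tested iron genes, 7 rose and 2 fell, and 8 rose and 4 fell without the SR9009 library of mouse 1. Lcn2, which withholds iron from bacteria, had 50.2, 103, 184 and 190.5 CPM in SR9009 and LPS and 0, 0.694, 0.161 and 0.135 CPM in SR9009, and the ferroxidase Cp and the iron carrier Slc11a2 rose by 4.97 and 1.63.

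Antigen display and pathogen sensing were counted next. Of 15 tested MHC class I and immunoproteasome genes, 12 rose and none fell, with a median of 1.71. Nlrc5, the transactivator of class I genes, averaged 394 ± 133 CPM in SR9009 and LPS and 47.4 ± 12.8 CPM in SR9009 (log2 3.06), and Tapbp, which loads peptides, rose by 2.10. Of 16 tested MHC class II and costimulation genes, 4 rose and none fell. With a term for the mouse 8 rose and 1 fell, and without the SR9009 library of mouse 1 5 rose and 1 fell. Cd40 had 292, 402, 339 and 369 CPM in SR9009 and LPS and 5.57, 4.93, 2.09 and 3.52 CPM in SR9009 (log2 6.45 ± 0.35, SE, adjusted p = 1.2e-08), and Cd274, which encodes PD-L1, rose by 3.27 (3.99 without the SR9009 library of mouse 1). Of 18 tested pattern recognition receptors, 10 rose and 4 fell. The RNA sensor Tlr3 averaged 115 ± 21 CPM in SR9009 and LPS and 17.6 ± 3.63 CPM in SR9009, and Tlr1, Nod2 and Nod1 rose by 2.61, 2.63 and 3.28. Of 16 tested inflammasome and cell death genes, 8 rose and none fell, led by Mefv (2.96), Casp4 (2.81), which senses LPS in the cytosol, Mlkl (2.54) and Casp1 (2.05). Of 6 Fcγ receptor genes, 4 rose and none fell: Fcgr1 averaged 973 ± 292 CPM in SR9009 and LPS and 83.9 ± 33.7 CPM in SR9009, and Fcer1g and Fcgr4 rose by 0.91 and 2.70. Of 15 tested complement genes, 5 rose and 1, the receptor gene C5ar2, fell (log2 -2.35), with C3 at 5118 ± 1989 CPM in SR9009 and LPS and 559 ± 323 CPM in SR9009.

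Of 15 tested scavenger and efferocytosis receptors, 4 rose and 3 fell, and 4 rose and 6 fell without the SR9009 library of mouse 1. Cd163, the hemoglobin scavenger, had 2.94, 2.47, 2.73 and 3.14 CPM in SR9009 and LPS and 13.9, 18.2, 14.5 and 16.9 CPM in SR9009 (log2 -2.49 ± 0.22, SE, adjusted p = 6.8e-07). Colec12 fell by 1.56, whereas Axl and Marco rose by 1.77 and 4.94. Of 16 tested purinergic genes, 3 rose and 4 fell. The adenosine receptor gene Adora2a averaged 58.3 ± 23.8 CPM in SR9009 and LPS and 0.268 ± 0.183 CPM in SR9009, while Entpd1 (CD39), which breaks down ATP outside cells, fell to 47.5 ± 35.1 CPM, against 189 ± 53.4 CPM in SR9009. Of 47 tested cell cycle and replication genes, 3 rose and 14 fell, with a median of -0.91. The genes that rose included the inhibitor Cdkn1a (p21), at 1343 ± 351 CPM in SR9009 and LPS and 174 ± 61.8 CPM in SR9009, and Ccnd2 (4.12), and Ung, a DNA repair enzyme, fell by 3.58. Of 25 tested genes of the unfolded protein and integrated stress response, 3 rose and 4 fell (2 without the SR9009 library of mouse 1), among them the sensors Eif2ak3 (PERK) and Ern1 (IRE1), which fell by 1.41 and 1.13, and Mthfd2, which rose by 1.04. Of 26 tested lysosome and V-ATPase genes, 1 rose and 4 fell, beside 14.5% and 15.8% of all genes. Without the SR9009 library of mouse 1, 3 rose and 8 fell, beside 22.7% and 20.8% of all genes. Atp6v0d2 fell by 2.13 and Npc1, which exports cholesterol from lysosomes, by 1.18. Of 15 tested lineage genes, 3 rose and 1 fell, against 5 and 3 without the SR9009 library of mouse 1, and Spi1 (PU.1) averaged 815 ± 129 CPM in SR9009 and LPS and 351 ± 58.6 CPM in SR9009. The call of Spi1 was lost when the trend with transcript GC content was removed (log2 0.32, adjusted p = 0.58). With a term for the mouse, 2 lysosome genes rose, 2 complement genes fell, and 1 gene fell in each of the lists of chemokine ligands, Fcγ receptors and inflammasome genes, of which none fell without it.

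Macrophage markers were high and most markers of other cells were near 0. The 7 macrophage markers summed to 7623 to 8033 CPM in SR9009 and LPS and to 5228 to 7852 CPM in SR9009, although Lyz2, a lysozyme gene of macrophages, had at most 52.6 CPM in any of the 8 libraries. In bulk libraries, fewer cells of a type and less RNA per cell cannot be told apart. Marker sums of B cells, natural killer cells, mast cells, fibroblasts and erythroid cells stayed at or under 1.39 CPM in all 8 libraries. The 6 T cell markers summed to 2.96 to 5.36 CPM in SR9009 and LPS and to 0.836 to 8.37 CPM in SR9009, nearly all of it Cd4, and the T cell receptor genes on the list stayed at or under 0.146 CPM. The 6 dendritic cell markers summed to at most 3.77 CPM, with 1 of 2 tested higher. The 8 neutrophil markers summed to at most 5.81 CPM, and 1 tested member rose. Of 4 endothelial markers, 3 rose, and their sum was 91.7 to 189.7 CPM in SR9009 and LPS and 3.34 to 12.3 CPM in SR9009. Nearly all of this was Kdr, with 124.0, 185.6, 88.8 and 87.9 CPM in SR9009 and LPS and 3.34, 4.24, 10.7 and 11.9 CPM in SR9009, while Tek was at 0 in all 8 libraries and Pecam1 and Cdh5 stayed at or under 3.08 CPM. Whether other cells contributed to the rise of Edn1, Icam1 or Procr was not tested.

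The mice differed among themselves in the size of the response, and the difference had opposite signs for different genes. After SR9009 and LPS, Cxcl10, Cxcl11, Heatr9 and Adamts4 were higher in mice 1 and 2, whereas Ptgs2, Edn1, Il6, Il12b, Il1b, Hmox1 and Slc7a11 were higher in mice 3 and 4. Heatr9 had 60.8, 64.3, 13 and 9.24 CPM in SR9009 and LPS and 0, 0.183, 0 and 0 CPM in SR9009. The LPS libraries, which are not among the 8 compared, came from the same mice. There Cxcl10 had 7843, 6076, 2572 and 3717 CPM, again highest in mice 1 and 2. Ptgs2 had 299, 398, 964 and 1097 CPM in the LPS libraries and Il6 14.6, 20.9, 37.3 and 59.2 CPM, again highest in mice 3 and 4. Hmox1 had 615, 1087, 1698 and 1212 CPM in the LPS libraries, so its spread among mice was smaller there than after SR9009 and LPS. The labels do not state whether mice were handled on different days, and a cause of these differences was not tested. The groups of SR9009 and LPS and of SR9009 stayed apart in all 4 mice for each of these genes except Hmox1, whose SR9009 values in mice 3 and 4 lay above its SR9009 and LPS values in mice 1 and 2.

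Finally, the response was set beside the response to LPS without SR9009, which used the other 8 libraries of the same mice. Across 13438 genes the log2 fold changes correlated with Pearson's r of 0.892 and Spearman's rho of 0.846, given as a description over genes that are not independent. Of the 1944 genes called higher with SR9009, 1742 were also called higher in LPS versus DMSO, which is 89.6% of the first list and 66.7% of the 2611 genes of the second (19.4% of all tested). Of the 2126 called lower with SR9009, 1704 were called lower in LPS versus DMSO, 80.2% of the first and 62.2% of the 2741 of the second (20.4% of all tested, and 39.8% in either direction). With all libraries no gene was called in opposite directions in the 2 comparisons. Without the SR9009 library of mouse 1, 6 genes called higher and 4 called lower with SR9009 were called the other way in LPS versus DMSO, and 11 and 9 were with a term for the mouse as well. The 2019 genes called higher by 1 or more on the log2 scale in LPS versus DMSO had a median of 1.66 with SR9009 and of 1.97 in LPS versus DMSO, whose values chose them. The 2222 called lower by as much had medians of -1.32 with SR9009 and -1.86 in LPS versus DMSO.

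**Figure D4:**
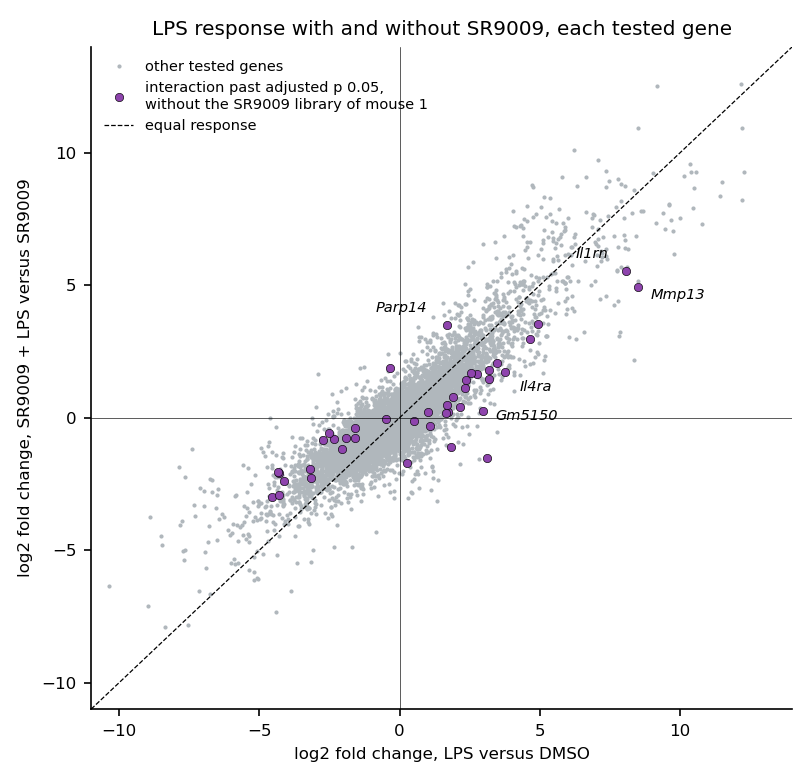
Log2 fold change of each of 13438 tested genes, SR9009 and LPS versus SR9009 (y axis) against LPS versus DMSO (x axis), with the line of equal response dashed. The 41 genes in purple passed the interaction test without the SR9009 library of mouse 1, and those induced by LPS and lying under the line, such as Mmp13 and Il1rn, rose less with SR9009.

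The difference between the responses was tested as an interaction, the LPS response with SR9009 minus the response without it. With all libraries and edgeR, 1 gene passed (0.00744%), Gm5150, which was lower in the difference, while at an unadjusted p under 0.05 there were 471 higher and 488 lower. DESeq2 called 53 higher and 50 lower, limma-voom none, and edgeR with a term for the mouse called 11 higher and 4 lower (0.0819% and 0.0298%). Without the SR9009 library of mouse 1, edgeR called 17 higher and 24 lower (0.125% and 0.176%), and with a term for the mouse as well 163 higher and 108 lower (1.19% and 0.791%, or 1.99% in all). Gm5150 (chromosome 3, 16001034 to 16060601, GRCm39), a gene of the SIRP receptor family, had 2.64, 3.06, 2.17 and 1.78 CPM in SR9009 and LPS and 2.23, 2.3, 1.77 and 1.86 CPM in SR9009. In cells without the agonist it had 14.7, 29, 27.4 and 23.8 CPM in LPS and 3.46, 3.08, 3.08 and 2.53 CPM in DMSO. The log2 interaction was -2.72 ± 0.36 (SE, adjusted p = 0.017), and LPS moved Gm5150 by 0.24 with SR9009 (adjusted p = 0.52) and by 2.97 without it. The interaction of Gm5150 missed the threshold without mouse 2, 3 or 4 (adjusted p 0.45 to 1.0), without the SR9009 library of mouse 2 (0.064) and without the SR9009 and LPS library of mouse 1, 3 or 4 (0.053 to 0.081). Its log2 value lay between -2.89 and -2.38 in all alternatives run.

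Other genes passed without the SR9009 library of mouse 1, and those named are among the 6 largest protein-coding ones in each direction with a mean of at least 5 CPM. The response with SR9009 was smaller for Mmp13, Gm5150, Il1rn, Il4ra, Sema4c and Carhsp1. Il4ra, the receptor chain for interleukin 4 and interleukin 13, had 352, 410.2, 327 and 285 CPM in SR9009 and LPS and 33.5, 148, 118 and 118 CPM in SR9009. It had 1869, 3029, 1757 and 1779 CPM in LPS and 184, 171, 143 and 130.1 CPM in DMSO, and its log2 interaction was -2.24 ± 0.28 (SE, adjusted p = 0.0046). For Mmp13 the LPS libraries held 1996, 3295, 1539 and 1787 CPM and the DMSO libraries 8.65, 6.69, 2.94 and 5.39 CPM, and the log2 interaction was -3.28 ± 0.55 (SE, adjusted p = 0.023). Il1rn had 1318, 2306, 2613 and 2944 CPM in LPS and 8.56, 11.8, 6.05 and 7.79 CPM in DMSO, a log2 interaction of -2.27 ± 0.41 (SE, adjusted p = 0.031). In all 3 genes every SR9009 and LPS library lay under every LPS library. They were picked by their interaction in the same libraries, and the share of all genes so separated was not counted, so this only describes them. The SR9009 and DMSO libraries overlapped, with Il4ra lowest of all in the SR9009 library of mouse 1. Sema4c and Carhsp1 had log2 interactions of -2.00 ± 0.25 and -1.68 ± 0.31 (SE). Of 24 alternatives run, the interaction passed in 10 for Mmp13, 9 for Il1rn, 6 for Il4ra and 5 each for Sema4c and Carhsp1. None of these genes passed without mouse 2, 3 or 4, and Carhsp1 also missed without mouse 1 altogether.

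In the other direction stood Parp14, Pank1, Susd3, Ypel3 and Abcb4. Parp14, an interferon-stimulated ADP-ribosyltransferase, rose more with SR9009, with 2685, 2451, 1603 and 1493 CPM in SR9009 and LPS and 231, 147, 185 and 156 CPM in SR9009. Without the agonist it had 1759.7, 1407, 1299 and 1329 CPM in LPS and 486, 647, 305 and 372 CPM in DMSO, and the log2 interaction was 2.06 ± 0.36 (SE, adjusted p = 0.028). The other 4 fell after LPS in both comparisons, and by less with SR9009. In mouse 1, however, Susd3 and Ypel3 were lower in the SR9009 library than in the SR9009 and LPS library. With all libraries, the fall with SR9009 was lost for Ypel3 and Abcb4 without mouse 2, 3 or 4 (adjusted p 0.052 to 0.070 and 0.074 to 0.12) and for Abcb4 without the SR9009 and LPS library of mouse 3 (0.057). In a model of the 2 groups with a term for the mouse it was lost for Susd3, Ypel3 and Abcb4 (0.10, 0.18 and 0.073). Pank1, a kinase of coenzyme A synthesis, had 5.11, 2.83, 3.42 and 3.5 CPM in SR9009 and LPS and 28, 17.8, 16.1 and 15.2 CPM in SR9009, against 0.998, 0.914, 0.986 and 0.642 CPM in LPS and 15, 12.5, 16.2 and 17.5 CPM in DMSO. Log2 interactions were 2.05 ± 0.31 for Pank1, 1.97 ± 0.32 for Susd3, 1.96 ± 0.31 for Ypel3 and 1.92 ± 0.35 for Abcb4 (SE). Of 24 alternatives run, the interaction passed in 6 each for Parp14 and Pank1, 5 each for Susd3 and Abcb4 and 4 for Ypel3. None of these genes passed without mouse 2, 3 or 4. Parp14, Susd3, Ypel3 and Abcb4 also missed without mouse 1 altogether.

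With the term for the mouse and without the SR9009 library of mouse 1, 20 of 36 tested antiviral genes and 7 of 15 GBP and IRG GTPases passed as more strongly induced with SR9009 and none as less, against 1.19% of all genes. In the other fits there were fewer calls. With all libraries and no term for the mouse, edgeR called none of the 36 and none of the 15, although 22 and 10 had a positive interaction at an unadjusted p under 0.05, limma-voom called none, and DESeq2 called 12 and 3. The term for the mouse alone gave 6 and 2, and leaving out the SR9009 library of mouse 1 alone gave 1 and 0. Cxcl10 had the 2.01 to 9.65 CPM given above in SR9009, against 72.3, 128, 21 and 51 CPM in DMSO, while its levels after LPS overlapped with and without SR9009 (log2 interaction 3.79, adjusted p = 0.0035). Ifit3 had 2328, 2626, 871 and 767 CPM in SR9009 and LPS and 18.5, 22.2, 15.1 and 10.8 CPM in SR9009, against 2362, 1936, 971 and 1206 CPM in LPS and 186, 261, 54.8 and 113 CPM in DMSO (2.90, adjusted p = 0.0041). Ifit3 has a near-identical neighbour, Ifit3b, so its counts are uncertain. Mx1 had 2196, 2353, 797 and 691 CPM in SR9009 and LPS and 6.69, 10.4, 6.28 and 5.49 CPM in SR9009, against 2346, 2425, 1026 and 1179 CPM in LPS and 64.7, 103, 25.7 and 44.9 CPM in DMSO (2.50, adjusted p = 0.0035). The interactions of Cxcl10, Ifit3 and Mx1 did not pass with all libraries (adjusted p = 0.22, 0.15 and 0.21) or with the SR9009 library of mouse 1 left out and no term for the mouse (0.091, 0.068 and 0.099), and each passed in 4 of 24 alternatives. For these 3 genes the SR9009 libraries lay under every DMSO library before LPS. The share of all genes so separated was not counted, so this only describes them. Plau passed in 1 of 24 alternatives, the fit with the term for the mouse and without the SR9009 library of mouse 1. There its interaction was negative, that is, a larger fall with SR9009 (adjusted p = 0.028). It did not pass with all libraries (0.73).

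**Figure D5:**
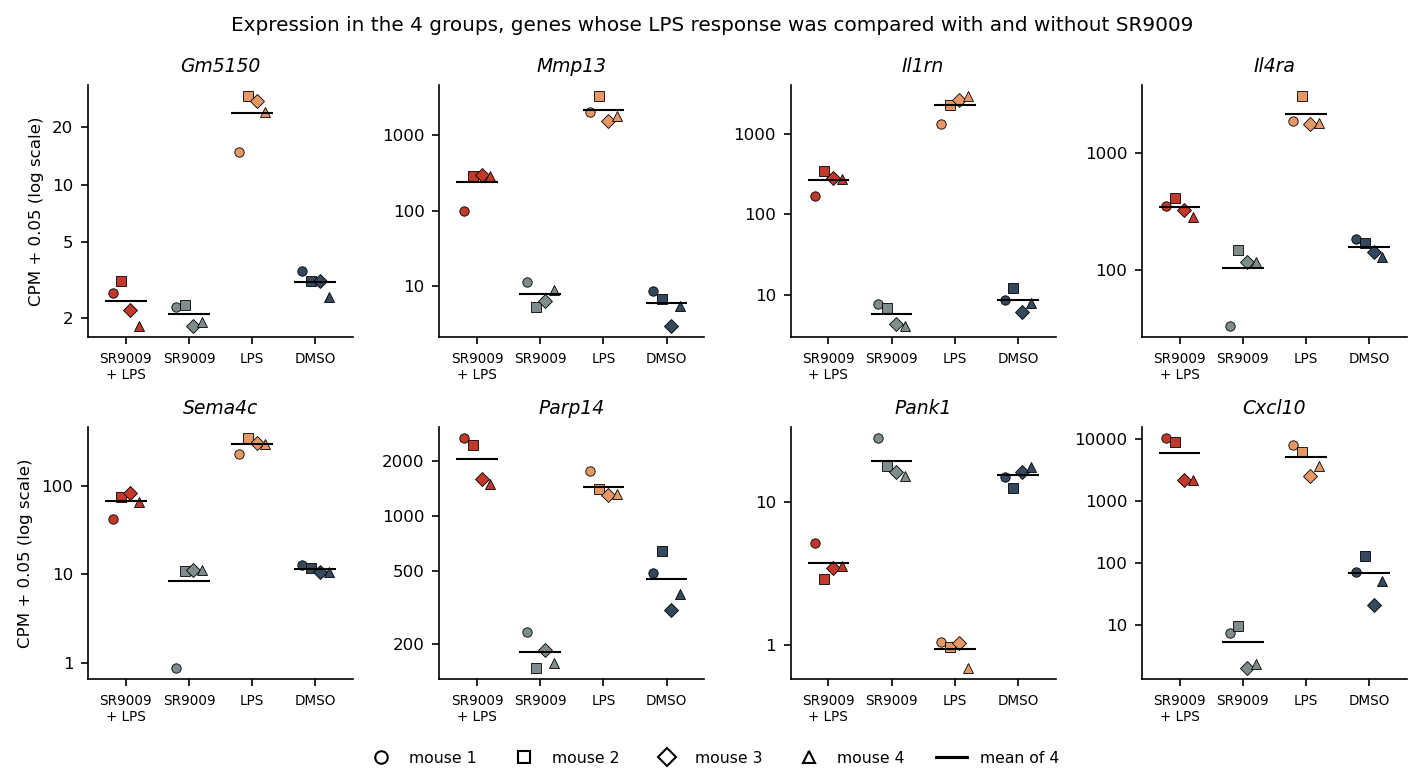
CPM plus 0.05 on a log axis for 8 genes in SR9009 and LPS, SR9009, LPS and DMSO, 1 symbol shape per mouse and a line at the mean of 4 libraries. Gm5150 sits between 1.78 and 3.06 CPM in SR9009 and LPS and between 14.7 and 29.0 CPM in LPS, and Cxcl10 is lower in every SR9009 library than in any DMSO library.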

How the data were processed

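Poly(A) RNA of 16 libraries was sequenced, 8 of which are compared here. HISAT2 and the genome build GRCm39 (mm39) are named in the submitters' processing notes. Of the aligner version, counting tool, strand setting and annotation release, the sources used here say nothing. The authors deposited raw counts per gene and FPKM values (scaled to transcript length and library size) for 56748 genes, and the FPKM were used for ranks and for an alternative test only.

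Genes were kept by edgeR's filterByExpr (minimum count 10), scaled by TMM and tested with edgeR 4.0.16 in R 4.3.3 (quasi-likelihood, Benjamini-Hochberg, threshold 0.05) in 1 model of the 4 groups, which share an estimate of the spread (common biological coefficient of variation 0.377). The p-values of this model rest on the spread among libraries of a group, each from a different mouse, and leave the pairing out. With a term for the mouse, they rest on the spread left after differences between mice are removed. DESeq2 1.42.0 and limma 3.58.1 served as alternatives, as did other scalings, filters, left-out libraries, a term for the mouse and a removed GC trend. Scripts were tested on simulated data. Same-numbered libraries came from the same mouse, and their deviations from the group means correlated with r of 0.29, 0.23, 0.20 and 0.35 for mice 1 to 4 (median -0.10 between different mice). Transcript GC content came from GENCODE M21 and was found for 98.7% of tested genes.

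The members and gene lists were chosen with earlier results of these data known. Named genes were the 10 largest protein-coding changes each way with a mean of at least 5 CPM, called with and without the SR9009 library of mouse 1 and of 1 sign in 4 of 4 mice. Added to these were up to 4 members of each list with the smallest p, tested plasminogen and clock genes, check genes, and the 6 largest interactions each way. Some genes that this rule names are not reported here. Other genes in the text (Tlr4, Il1rl1, C5ar2, Cxcr3, Irf4, Kdr, Ifit3, Mx1 and further cell markers) were chosen after their values were seen. Intervals and floors (3 counts) cover counting error only.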

Additional observations from a re-analysis of the deposited data

Results flagged for a closer look

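In groups of 4 libraries, 1 library stood apart from the other 3 in 20 of 156 groups tested for the levels and library measures printed above. The criterion was Dixon's, which chance meets in about 1 in 20 groups of independent, normal values. A group with counts in 1 library only, such as Cxcl9 in SR9009, is always flagged, and the groups share libraries. The 20 of 156 can therefore not be set against that rate. The SR9009 library of mouse 1 was the one that stood apart in 9 of the 20. It was the lowest of its group in genes with a count (13298) and in the share of counts in transcripts above 55% GC (5.34%). It was the highest for Hpgd (191.0 CPM), Nr1d2 (175 CPM), Arntl (36.2 CPM), Ccl3 (28.7 CPM), Vcan (4.25 CPM) and Lipg (0.209 CPM) and the lowest for Cxcr3 (0.836 CPM).

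Most other flags were in SR9009 libraries near 0. There Il12b (0.329 CPM), Serpinb2 (0.256 CPM), Heatr9 (0.183 CPM) and Il6 (0.110 CPM) were highest in mouse 2, as was Ptges (9.24 CPM). Plat (0.201 CPM) and Edn1 (0.0403 CPM) were highest and Ptgs2 (0.201 CPM) lowest in mouse 3, and Cxcl9 (0.135 CPM) was highest in mouse 4. Among SR9009 and LPS libraries, Mmp13 was lowest in mouse 1 (97.9 CPM) and Cd14 lowest in mouse 3 (2221 CPM).

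The LPS response differed with and without SR9009 by the interaction test for Gm5150 with all libraries (log2 -2.72). Without the SR9009 library of mouse 1 it was smaller with SR9009 for Mmp13 (-3.28), Gm5150 (-2.60), Il1rn (-2.27), Il4ra (-2.24), Sema4c (-2.00) and Carhsp1 (-1.68). The interaction was positive for Parp14 (2.06), Pank1 (2.05), Susd3 (1.97), Ypel3 (1.96) and Abcb4 (1.92). The labels do not state a vehicle for the LPS group, so a vehicle difference and the effect of SR9009 cannot be told apart in these values.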

How the results depend on the processing

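Of 157 named genes called in the LPS response with SR9009, 144 stayed called in the same direction under every alternative in which they were tested. None of the 157 turned. Some genes, such as Ung with 25 of 27 alternatives, were not tested in all of them. The term for the mouse (replicate block) ended no call among them with all libraries and gave 2207 genes higher and 2362 lower. With only the groups compared, the calls of Serpinb8, Per3, Hmox1 and Ypel3 were lost (adjusted p of 0.0899, 0.0847, 0.122 and 0.0537), and by limma-voom those of Npas2, Hmox1 and Ypel3 (0.0925, 0.0547 and 0.0547). For the comparison of SR9009 and LPS with SR9009, higher and lower calls were 1137 and 976 with only the groups compared, 1102 and 876 with the block as well, and 3415 and 3430 with the block and SR9009 mouse 1 left out. With the GC trend removed and the block, 3674 were lower. Leaving out libraries or mice gave 1307 to 3103 higher and 1123 to 2832 lower.

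For the interaction, higher and lower calls were 53 and 50 by DESeq2, 0 and 0 by limma-voom, 11 and 38 on log2(FPKM + 1), 2 and 8 on log2(FPKM + 0.1), 11 and 4 with the replicate block, and 163 and 108 with the block and SR9009 mouse 1 left out. Calls were 9 and 24 with the GC trend removed, and 68 and 67 with the block as well. Leaving out libraries or mice gave 0 to 17 higher and 0 to 24 lower. For LPS versus DMSO, the groups compared only gave 4115 lower, and 3931 higher and 4418 lower with the block. The block without the SR9009 library of mouse 1 gave 4017 higher and 4830 lower, and the block with the GC trend removed gave 4155 lower. Leaving out libraries or mice gave 1817 to 3658 higher and 1689 to 4177 lower. The cause of these shifts was not tested, but leaving out a mouse reduces the libraries by 4. The fit with only the groups compared, without the SR9009 library of mouse 1, was chosen after seeing the data.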
